A study of Mus musculus with 8 samples.

Results

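The genes described here are those whose symbol in the deposited mouse granulosa cell table begins with Eif followed by a digit from 1 to 6, the naming of the eukaryotic translation initiation factors (eIFs). They number 58 of the 23235 gene symbols measured, and the rule that chose them uses the symbol alone. Of the 58 genes, 55 passed the filter for testing, which asked that 2 or more of the 8 libraries reach an FPKM of 1. FPKM is the number of fragments scaled to transcript length and library size, so levels can be set side by side between genes. Eif2c1, Eif2c2, Eif2c3 and Eif2c4 are older symbols of the Argonaute genes Ago1, Ago2, Ago3 and Ago4, which encode small-RNA-guided silencing proteins, and they are kept apart below.

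The cells were granulosa cells, the somatic cells around the oocyte, from the ovaries of female C57BL/6 mice. The 4 groups were CNOT6/6L knockout (KO) cells 44 h after PMSG, wild type (WT) cells 44 h after PMSG, KO cells without PMSG (0 h) and WT cells without PMSG (0 h), with 2 libraries each. PMSG is a gonadotropin with FSH-like activity that drives follicle growth, and CNOT6 and CNOT6L are deadenylase subunits of the CCR4-NOT complex, which shortens the poly(A) tails of mRNAs. The labels named neither the alleles behind the knockout nor the age, the PMSG dose or the number of animals in a library. Nothing in them said that replicates were separate animals, so every p-value below reflects variation among these 8 libraries alone, and that variation may be technical.

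Initiation begins when eIF2, carrying GTP and the initiator tRNA, joins the small ribosomal subunit together with eIF1, eIF1A, eIF3 and eIF5. The eIF4F complex, made of the cap-binding protein eIF4E, the scaffold eIF4G and the RNA helicase eIF4A, brings this assembly to the capped end of an mRNA, where it scans for a start codon. Cells set the rate mainly at eIF2, by kinases that phosphorylate its alpha subunit, and at eIF4E, by 4E-binding proteins that mTORC1 releases. In the follicle, gonadotropins act on granulosa cells partly through mTORC1, and the oocyte relies on translational control of stored mRNAs.

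The 2 KO libraries at 44 h stood apart from each other. The library labelled KO replicate 1 at 44 h differed from KO replicate 2 by at least 1 on the log2(FPKM + 1) scale for 1527 of 13688 genes tested, whereas the pair of libraries differed that far for 382 genes in the WT group at 44 h, for 432 in the KO group at 0 h and for 317 in the WT group at 0 h. Cnot6 had 26.7 FPKM in that library and 17.4 FPKM in its KO partner, against 26.0 and 26.9 FPKM in the WT libraries at 44 h. At 0 h Cnot6 had 11.7 and 12.0 FPKM in KO and 29.1 and 18.4 FPKM in WT. Cnot6l had 2.01 and 1.61 FPKM in KO and 4.20 and 2.63 FPKM in WT at 44 h, against 4.69 and 1.97 FPKM in KO and 6.11 and 7.07 FPKM in WT at 0 h. Neither gene passed the test in any comparison. Which part of each gene the knockout removes is not in the labels, so reads outside it may remain. Where leaving out either of these libraries turned the sign of a printed value of an initiation factor gene, the values without each are given. All 10 granulosa cell markers were detected in the libraries, with summed levels of 18915 to 25589 FPKM in KO and 13854 to 17241 FPKM in WT at 44 h, against 11582 to 11729 FPKM in KO and 9787 to 11241 FPKM in WT at 0 h. Inha made up most of each sum, at 10434 to 23238 FPKM at 44 h and 8434 to 10433 FPKM at 0 h. Of the others, Fshr, Foxl2, Inhba, Hsd17b1 and Cyp19a1 were higher at 44 h. Amh, Esr2 and Amhr2 were lower, and Nr5a2 overlapped, so the sums do not measure the amount of granulosa cells.

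Initiation factor mRNAs were mostly abundant but covered a wide range of levels. Averaged over the 8 libraries, 9 of the 58 genes had at least 200 FPKM, 21 had at least 100 FPKM, and 13 had less than 10 FPKM. Eif5a was the highest, with 1272 and 1055 FPKM in KO and 1276 and 1282 FPKM in WT at 44 h, against 928 and 1064 FPKM in KO and 1261 and 1102 FPKM in WT at 0 h. Eif5a encodes the hypusine-modified factor that helps ribosomes through difficult peptide bonds. Eif4a1, the main eIF4F helicase gene, came second with 528 and 360.3 FPKM in KO and 413 and 410.3 FPKM in WT at 44 h, against 405 and 422 FPKM in KO and 404 and 379 FPKM in WT at 0 h. Next was Eif3g, an RNA-binding subunit of eIF3, with 390.1 and 299.7 FPKM in KO and 310.3 and 409 FPKM in WT at 44 h, against 325 and 369 FPKM in KO and 398 and 366 FPKM in WT at 0 h. For Eif5a the KO libraries lay below the WT libraries at each time, while for Eif4a1 and Eif3g the KO and WT libraries overlapped at 44 h.

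Together the 58 genes made up 0.945% and 0.839% of the summed FPKM in KO and 0.886% and 0.884% in WT at 44 h, against 0.934% and 0.977% in KO and 0.987% and 0.974% in WT at 0 h. The share was thus lower in each WT library at 44 h than in each WT library at 0 h, and the KO libraries of the 2 times overlapped. Between its highest and its lowest library, the median gene of the 55 tested differed 1.49-fold, against 2.11-fold over all genes tested with no library at 0. The spread was under 2-fold for 41 of the 55 genes (74.5%), against 44.7% of all genes. The 3 genes that did not pass the filter were Eif2s3y, the Y-linked copy of the eIF2 gamma gene, listed at 0 in all 8 libraries, Eif3j at 0.00102 to 0.0863 FPKM, and Eif2c4 at 0.241 to 1.04 FPKM. Eif3j corresponds to the current symbol Eif3j1, and this gene has a near-identical copy, so its low value is uncertain. Eif1a with Eif1ax, Eif4a1 and Eif5a also have close paralogs or processed copies between which reads may have been divided.

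**Figure D1:**
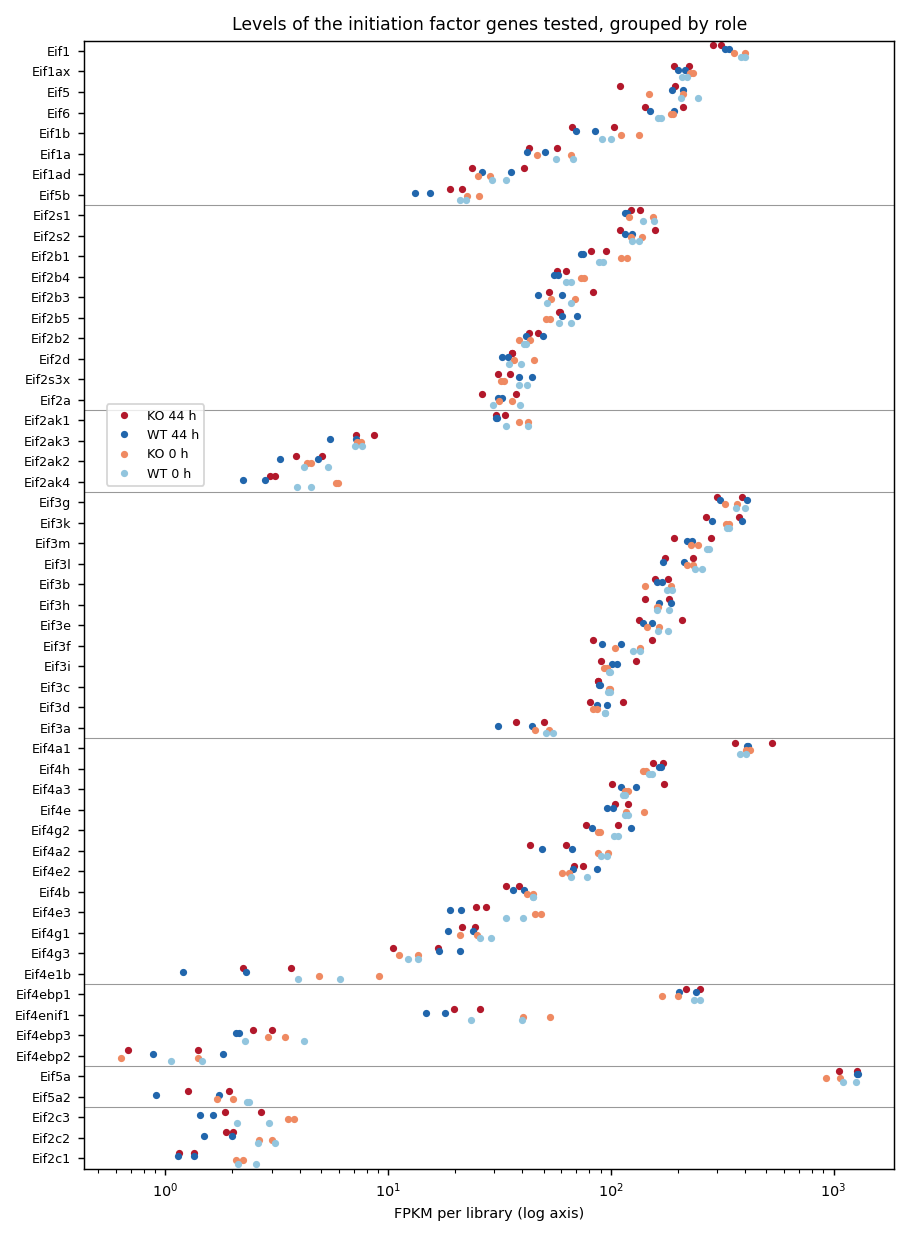
FPKM on a log axis of the 55 initiation factor genes tested, one row per gene, grouped by role from scanning factors at the top to Argonaute genes at the bottom, with 1 point per library and 2 libraries per group. Levels run from 0.630 FPKM for Eif4ebp2 to 1282 FPKM for Eif5a.

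At the level of single genes, no initiation factor gene passed the test in any comparison. In KO against WT at 44 h, limma called 0 of 55 genes at a Benjamini-Hochberg adjusted p under 0.05, where 0.0219% of all genes were called (3 of 13688). At 0 h KO against WT gave 0 of 55, against 0.0365% of all genes. The change by 44 h gave 0 of 55 in KO, against 0.139% of all genes, and 0 of 55 in WT, against 0.0804%. The interaction, the change by 44 h in KO minus that in WT, gave 0 of 55, against 0.0438%. With so few calls among all genes, these counts cannot set the initiation factors apart from the rest. At an unadjusted limma p under 0.05 there were 1 of 55 genes in KO against WT at 44 h (1.82%, against 9.79% of all genes), 1 of 55 at 0 h (against 9.69%), 7 of 55 in KO over time (12.7%, against 21.1%), 8 of 55 in WT over time (14.5%, against 24.1%) and 0 in the interaction (against 1.82%). The 7 genes in KO and the 8 in WT were all lower at 44 h, where 15.4% of all genes were lower at that unadjusted threshold in KO and 15.8% in WT.

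Fitted levels of the initiation factors at 44 h lay more often below than above those at 0 h, as did those of all genes. In KO, 34 of 55 genes had a negative fitted change, with a median of -0.08 on the log2(FPKM + 1) scale, against -0.11 over all genes, of which 60.6% were negative. In WT, 42 of 55 were negative, with a median of -0.17, against -0.13 over all genes, of which 61.9% were negative. Both KO libraries at 44 h were below both at 0 h for 18 of the 55 genes (32.7%, against 34.1% of all genes), and above them for 4, Eif2b5, Eif4e2, Eif4ebp1 and Eif4h (7.27%, against 14.3%). In WT the corresponding counts were 29 below (52.7%, against 40.6%) and 5 above, Eif3i, Eif4a1, Eif4g3, Eif4h and Eif5a (9.09%, against 22.5%). The 17 genes below in both genotypes made up 30.9% of the 55, against 25.4% of all genes, and Eif4h was the single gene above in both (1.82%, against 9.18%). Eif4h, Eif4e3, Eif4a2 and Eif4enif1 kept these signs under both other scalings, while the WT changes of Eif5a and Eif4a1 turned negative under quantile normalization. Scaling the libraries by the median of ratios moved the all-gene median to 0.01 in KO and -0.01 in WT, and with it the medians of the initiation factors to 0.06 in KO and -0.04 in WT. Quantile normalization gave initiation factor medians of -0.09 in KO and -0.19 in WT, against -0.02 and -0.06 over all genes. The sign of the KO median thus depended on the scaling. Without KO replicate 1 at 44 h the KO median was -0.24 with 43 of 55 negative, and without KO replicate 2 at 44 h it was 0.03 with 27 of 55 negative.

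The summed level of the 9 theca and stroma markers, of which none was at 0 in every library, was 215 to 318 FPKM in KO and 217 to 260 FPKM in WT at 44 h, against 80.7 to 100.1 FPKM in KO and 64.6 to 73.1 FPKM in WT at 0 h. Most of each sum at 44 h came from Cyp17a1 (81.9 to 137 FPKM, against 1.95 to 21.6 FPKM at 0 h) and Dcn (54.4 to 120 FPKM, against 22.7 to 45.5 FPKM). The other markers of this list overlapped between the 4 libraries at 44 h and the 4 at 0 h. The part of theca and stroma cells in the levels at 44 h was not tested.

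**Figure D2:**
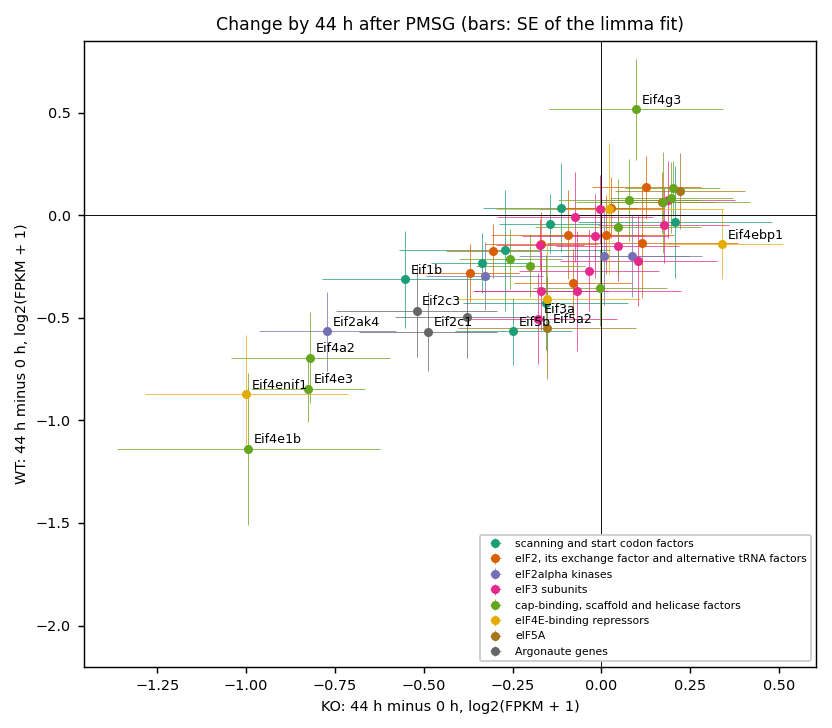
Fitted change by 44 h after PMSG, on the log2(FPKM + 1) scale, in KO on the x axis and in WT on the y axis for the 55 genes, coloured by role, with bars for the SE of the limma fit. Eif4e3, Eif4enif1, Eif4a2, Eif4e1b and Eif2ak4 lie farthest toward the lower left, with changes of -0.56 or below in both genotypes, and no gene passed the adjusted threshold in either.

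Between genotypes the levels were close. At 44 h the median difference between KO and WT was 0.08 on the log2 scale (0.05 over all genes), with 37 of 55 genes higher in KO (55.5% of all genes were). It was -0.08, with 20 of 55 higher, when KO replicate 1 at 44 h was left out. Leaving out KO replicate 2 instead gave 0.20. At 0 h the median was -0.05 (0.03 over all genes), with 21 of 55 higher in KO (54.6% of all genes were). Both KO libraries at 44 h were above both WT libraries for 11 genes (23.9% of all genes were) and below them for 6 (15.1%); at 0 h they were above for 12 (27.3%) and below for 14 (19.1%). Eif2ak4, Eif2b1, Eif2c3, Eif4e3, Eif4enif1 and Eif5b were above at both times (10.9% of the 55, against 13.5% of all genes), and Eif2b5, Eif2s3x and Eif5a were below at both times (5.45%, against 5.80%).

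The cap-binding eIF4E family held the gene with the smallest p over time in both genotypes. Eif4e3, which encodes a cap-binding protein that contacts the cap differently from eIF4E, had 27.5 and 24.9 FPKM in KO and 21.3 and 18.9 FPKM in WT at 44 h, against 48.6 and 45.7 FPKM in KO and 33.7 and 40.5 FPKM in WT at 0 h. All 4 libraries at 44 h lay below all 4 at 0 h, and within each time both KO libraries lay above both WT libraries. The change was -0.83 in KO (log2, SE 0.161, limma adjusted p = 0.0965) and -0.85 in WT (SE 0.161, adjusted p = 0.0847). It was past the threshold in WT when the WT libraries were fitted alone (adjusted p = 0.0444, with 6.9% of all genes called). It was also past it when KO replicate 1 at 44 h was left out (adjusted p = 0.0278, 9.74% of all genes called) or KO replicate 2 at 44 h was (adjusted p = 0.0276, 9.72%). In KO it passed without KO replicate 1 at 44 h (-0.90, adjusted p = 0.0393, 8.54% of all genes called). Over all leave-one-out fits its adjusted p ran between 0.0393 and 0.335 in KO and between 0.0276 and 0.463 in WT, and over the other alternatives between 0.0839 and 0.284 in KO and between 0.0444 and 0.161 in WT. KO against WT differed by 0.36 at 44 h (SE 0.161, adjusted p = 0.527; 0.29 without KO replicate 1) and by 0.34 at 0 h (SE 0.161, adjusted p = 0.560).

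Eif4e itself, the canonical cap-binding protein, varied less, with 119.6 and 104 FPKM in KO and 102 and 95.8 FPKM in WT at 44 h, against 117 and 140.5 FPKM in KO and 115 and 119.6 FPKM in WT at 0 h. The ratio of Eif4e3 to Eif4e was 0.230 and 0.238 in KO and 0.209 and 0.198 in WT at 44 h, against 0.414 and 0.325 in KO and 0.292 and 0.339 in WT at 0 h. The 4 libraries at 44 h thus had lower ratios than the 4 libraries at 0 h. Eif4e1b, a relative best known from oocytes, had 3.67 and 2.23 FPKM in KO and 2.31 and 1.19 FPKM in WT at 44 h, against 9.13 and 4.91 FPKM in KO and 3.95 and 6.10 FPKM in WT at 0 h. Its times did not overlap, its change was -0.99 in KO (SE 0.370, adjusted p = 0.190) and -1.14 in WT (SE 0.370, adjusted p = 0.138), and at such levels the pseudocount of 1 makes the log2 change smaller. Eif4e2, a cap-binding repressor that does not bind eIF4G, had 75.3 and 68.3 FPKM in KO and 67.9 and 86.4 FPKM in WT at 44 h, against 60.1 and 64.9 FPKM in KO and 78.4 and 66.4 FPKM in WT at 0 h. Both KO libraries were higher at 44 h than at 0 h, and the WT libraries of the 2 times overlapped.

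**Figure D3:**
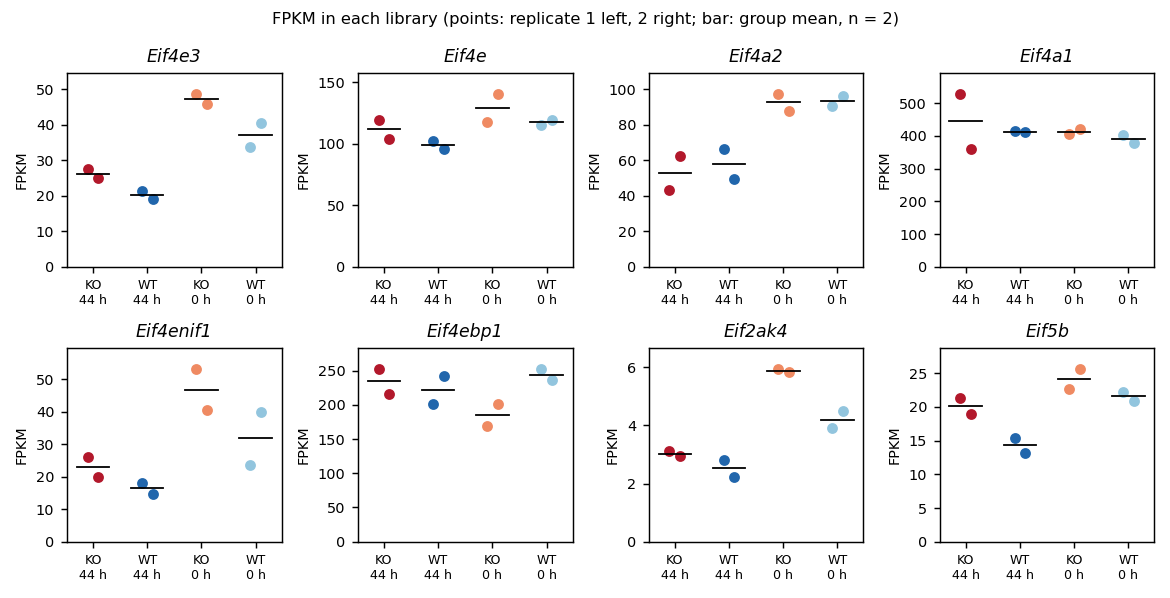
FPKM of 8 initiation factor genes in each library, axes from 0, with points for the 2 libraries of each group and a bar at their mean. Eif4e3, Eif4a2, Eif4enif1 and Eif2ak4 are lower in the 4 libraries at 44 h than in the same genotype at 0 h, whereas Eif4e and Eif4a1, paralogs of 2 of them, differ less between the times.

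The helicase paralogs Eif4a1 and Eif4a2 had different patterns over time, and neither passed the test. Eif4a2 had 43.2 and 62.6 FPKM in KO and 66.6 and 49.3 FPKM in WT at 44 h, against 97.4 and 87.9 FPKM in KO and 90.7 and 96.1 FPKM in WT at 0 h. All 4 libraries at 44 h were below all 4 at 0 h, while the genotypes overlapped at both times. The change of Eif4a2 was -0.82 in KO (SE 0.223, limma adjusted p = 0.127) and -0.69 in WT (SE 0.223, adjusted p = 0.137). Without KO replicate 1 at 44 h the KO change was -0.56 (adjusted p = 0.139), and without KO replicate 2 at 44 h it was -1.08 (adjusted p = 0.102), and the adjusted p in KO ran between 0.102 and 0.377 over the leave-one-out fits and between 0.114 and 0.298 over the other alternatives. The fitted change of Eif4a1 was 0.08 in KO (SE 0.200, adjusted p = 0.856) and 0.07 in WT (SE 0.200, adjusted p = 0.854). Leaving out KO replicate 1 at 44 h made the change in KO -0.20, and leaving out KO replicate 2 made it 0.35, and the sign in WT turned under quantile normalization (-0.01). The Eif4a2 to Eif4a1 ratio was 0.0819 and 0.174 in KO and 0.161 and 0.120 in WT at 44 h, against 0.241 and 0.209 in KO and 0.225 and 0.253 in WT at 0 h. Eif4a3, a helicase of the exon junction complex rather than of eIF4F, had 102 to 174 FPKM over all libraries, with both extremes in KO at 44 h.

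The 250 bases before the transcription start of these paralogs, and of Eif4enif1 as another gene that was lower at 44 h in all 4 libraries than in its own genotype at 0 h, are shown because the 2 lower genes and Eif4a1 had different patterns over time. They are read 5′ to 3′ in the direction of transcription from the RefSeq promoter table of build GRCm38.p6, which is not the build of the authors' files, and for Eif4enif1 the most upstream of 4 listed starts was taken. Capitals mark CACGTG, the E-box, and TGACG, the core of the cAMP response element, on either strand (CGTCA is TGACG read on the other strand).
Eif4a2, chr16:23107218-23107467, plus strand: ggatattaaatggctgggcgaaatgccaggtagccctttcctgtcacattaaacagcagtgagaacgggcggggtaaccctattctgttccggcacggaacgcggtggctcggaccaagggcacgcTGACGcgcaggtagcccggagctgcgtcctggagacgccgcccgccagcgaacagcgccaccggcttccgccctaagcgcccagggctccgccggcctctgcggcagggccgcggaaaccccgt
Eif4a1, chr11:69672424-69672673, minus strand: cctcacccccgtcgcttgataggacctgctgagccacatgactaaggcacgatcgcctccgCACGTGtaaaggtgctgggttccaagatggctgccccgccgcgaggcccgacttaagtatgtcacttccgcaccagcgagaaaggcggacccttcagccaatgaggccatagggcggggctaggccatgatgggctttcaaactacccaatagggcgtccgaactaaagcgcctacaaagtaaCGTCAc
Eif4enif1, chr11:3202103-3202352, plus strand: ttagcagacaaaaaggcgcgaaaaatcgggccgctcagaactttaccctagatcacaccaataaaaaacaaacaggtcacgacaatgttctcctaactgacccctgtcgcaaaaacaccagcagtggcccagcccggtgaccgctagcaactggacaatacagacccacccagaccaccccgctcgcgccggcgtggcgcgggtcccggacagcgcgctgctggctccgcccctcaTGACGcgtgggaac
TGACG began 124 bases before the start in Eif4a2, 6 in Eif4a1 and 14 in Eif4enif1, and CACGTG was found, of these windows, only in that of Eif4a1, 189 bases before the start. Of the 58 genes, 46 had a promoter entry, with 60 windows. TGACG was in 48.3% of these windows, against 17.8% of the 32851 windows in the table, and CACGTG was in 18.3%, against 6.02%. The full palindrome TGACGTCA was in 0 of the 60 windows, against 1.55% of all windows, and the amino acid response element TGATGNAA was in 1, that of Eif2s3x (1.67%, against 3.45%). TGACGTCA contains TGACG, and each motif was searched on both strands. The 60 windows include more than 1 start for some genes. The windows of all genes were not matched to them in base composition, and its part in these shares was not tested. The motif counts are matches of letters in a window and show no binding.

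Among the scaffold genes, Eif4g3 stood opposite to most of the others in WT. It had 10.5 and 16.7 FPKM in KO and 21.1 and 17.0 FPKM in WT at 44 h, against 13.6 and 11.2 FPKM in KO and 12.3 and 13.7 FPKM in WT at 0 h. Both WT libraries at 44 h lay above every other library, but the KO library labelled replicate 2 came close to the lower of them and KO replicate 1 at 44 h was the lowest of all 8. The change was 0.10 in KO (SE 0.246, limma adjusted p = 0.853) and 0.52 in WT (SE 0.246, adjusted p = 0.250), and KO against WT at 44 h was -0.48 (SE 0.246, adjusted p = 0.553). Leaving out KO replicate 1 at 44 h made the change in KO 0.40, and leaving out KO replicate 2 made it -0.21. The difference between genotypes was -0.18 without KO replicate 1 at 44 h (adjusted p = 0.898) and -0.79 without KO replicate 2 at 44 h (adjusted p = 0.0886), and its adjusted p ran between 0.0886 and 0.937 over the leave-one-out fits and between 0.514 and 0.781 over the other alternatives. Eif4g1, the main scaffold gene, had 24.5 and 21.4 FPKM in KO and 24.1 and 18.6 FPKM in WT at 44 h, against 25.0 and 21.1 FPKM in KO and 25.8 and 28.9 FPKM in WT at 0 h. Its WT libraries were lower at 44 h and its KO libraries overlapped. The Eif4g3 to Eif4g1 ratio was 0.430 and 0.779 in KO and 0.877 and 0.914 in WT at 44 h, against 0.543 and 0.532 in KO and 0.476 and 0.472 in WT at 0 h. Eif4g2, a scaffold without the eIF4E site, had 77.5 to 124 FPKM over all libraries. Eif4b and Eif4h, which stimulate eIF4A, lay on opposite sides. Eif4b was 33.8 to 40.7 FPKM in the libraries at 44 h and 41.9 to 44.8 FPKM in those at 0 h, whereas Eif4h was 153.9 to 172 FPKM at 44 h and 139 to 153.5 FPKM at 0 h.

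The genes for repressors of eIF4E were expressed very unequally. Eif4ebp1, the mTORC1-regulated 4E-binding protein, had 252 and 217 FPKM in KO and 202 and 242 FPKM in WT at 44 h, against 169 and 201 FPKM in KO and 253 and 236 FPKM in WT at 0 h. The KO libraries at 0 h were the lowest of all 8, and all other groups overlapped. KO against WT differed by -0.40 at 0 h (SE 0.171, limma adjusted p = 0.513) and by 0.08 at 44 h (SE 0.171, adjusted p = 0.883). The difference at 44 h was -0.03 without KO replicate 1 and 0.19 without KO replicate 2. Eif4ebp1 also had the smallest interaction p of the 55 genes, 0.48 (SE 0.242, unadjusted p = 0.0854, adjusted p = 1.00), with an adjusted p between 0.403 and 1.00 over the leave-one-out fits and of 1.00 over the other alternatives. Eif4ebp2 and Eif4ebp3, its paralogs, were near the detection filter. Eif4ebp2 had 1.40 and 0.682 FPKM in KO and 1.82 and 0.882 FPKM in WT at 44 h, against 1.40 and 0.630 FPKM in KO and 1.06 and 1.47 FPKM in WT at 0 h. Eif4ebp3 had 3.02 and 2.48 FPKM in KO and 2.13 and 2.08 FPKM in WT at 44 h, against 3.44 and 2.90 FPKM in KO and 4.19 and 2.28 FPKM in WT at 0 h. Groups overlapped for Eif4ebp2, and Eif4ebp3 was higher in both KO libraries than in both WT libraries at 44 h.

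Eif4enif1 encodes 4E-T, an eIF4E-binding repressor of RNA granules that is abundant in oocytes. It had 25.9 and 19.9 FPKM in KO and 18.1 and 14.8 FPKM in WT at 44 h, against 53.2 and 40.4 FPKM in KO and 23.6 and 40.0 FPKM in WT at 0 h. At both times both KO libraries lay above both WT libraries, by margins smaller than the gap between the WT libraries at 0 h. The change was -0.999 in KO (SE 0.286, limma adjusted p = 0.134) and -0.87 in WT (SE 0.286, adjusted p = 0.139), and KO against WT was 0.45 at 44 h (SE 0.286, adjusted p = 0.608) and 0.58 at 0 h (SE 0.286, adjusted p = 0.587). The difference at 44 h was 0.26 without KO replicate 1 and 0.63 without KO replicate 2. Without KO replicate 1 at 44 h the change in KO was -1.18 (adjusted p = 0.0738), within a range of 0.0738 to 0.408 over the leave-one-out fits and of 0.120 to 0.284 over the other alternatives.

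A few initiation factor genes ranked the libraries as the oocyte markers did, at a share near that of all genes. The 14 oocyte markers, among them the zona genes Zp1 to Zp3 and the growth factor genes Gdf9 and Bmp15, were all in the table, none was at 0 in every library, and their summed level was 1530 to 2519 FPKM in KO and 1052 to 1064 FPKM in WT at 44 h, against 4616 to 5248 FPKM in KO and 1944 to 3247 FPKM in WT at 0 h. Eif4enif1 and Eif2c3 ranked the 8 libraries exactly as this sum did, in 28 of 28 library pairs (2 of 55 genes, 3.64%, against 1.18% of all genes tested). Eif2ak4, Eif2b1 and Eif4e3 did so in 27 of 28 pairs, Eif2b4 in 26 and Eif4e1b in 25. At least 26 pairs were reached by 6 of the 55 genes (10.9%), against 7.99% of all genes. This ranking was examined after the values had been seen, and the part of the oocyte markers in these levels was not tested. In bulk libraries, fewer cells of a type and less RNA per cell cannot be told apart. Eif4a2, with similar levels in KO and WT at 0 h where the marker sums did not overlap, followed the order of the sum in 21 of 28 pairs. The median was 16 pairs over all genes tested and 18 pairs over the 55 genes.

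**Figure D4:**
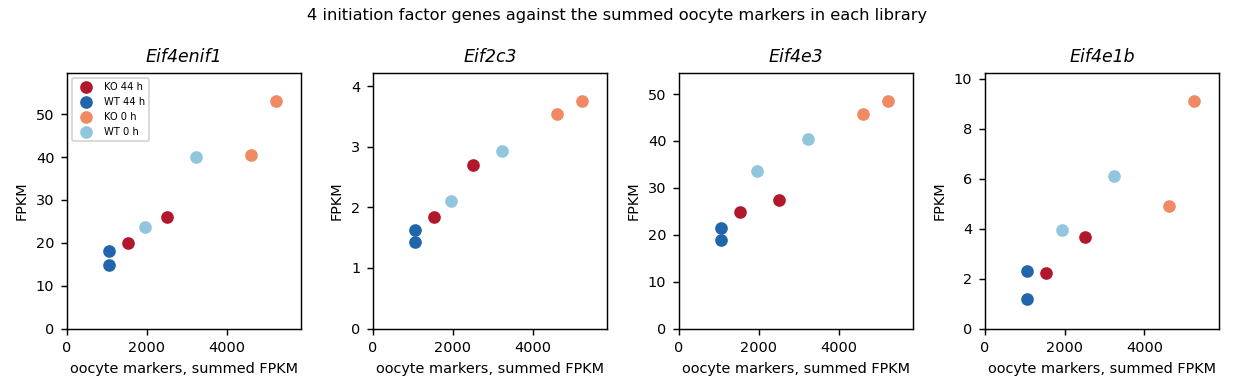
FPKM of Eif4enif1, Eif2c3, Eif4e3 and Eif4e1b, on y axes from 0, against the summed FPKM of the 14 oocyte markers in each of the 8 libraries. KO libraries at 0 h lie at the highest marker sums (4616 and 5248 FPKM) and WT libraries at 44 h at the lowest (1052 and 1064 FPKM). The 4 genes, picked after the values had been seen, are high and low in nearly the same libraries. Eif4e1b follows the order in 25 of 28 pairs, and Eif2ak4 and Eif2b1, with 27 each, are not shown.

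The 4 kinases that phosphorylate eIF2 alpha, each answering a different stress, were expressed at modest levels. Eif2ak4 encodes GCN2, the sensor of uncharged tRNA, and had 3.11 and 2.95 FPKM in KO and 2.81 and 2.23 FPKM in WT at 44 h, against 5.94 and 5.82 FPKM in KO and 3.90 and 4.50 FPKM in WT at 0 h. The 4 libraries at 44 h lay below the 4 at 0 h, and KO lay above WT at both times. Its change was -0.77 in KO (SE 0.192, limma adjusted p = 0.115) and -0.56 in WT (SE 0.192, adjusted p = 0.148), and KO against WT was 0.41 at 0 h (SE 0.192, adjusted p = 0.566). Eif2ak1, encoding the heme-regulated kinase HRI, was the highest of the 4 genes, with 33.5 and 30.6 FPKM in KO and 31.0 and 30.4 FPKM in WT at 44 h, against 38.7 and 42.4 FPKM in KO and 33.7 and 42.7 FPKM in WT at 0 h. Within each genotype its libraries at 44 h were below those at 0 h. Eif2ak2, the gene of the double-stranded RNA sensor PKR, had 3.87 and 5.07 FPKM in KO and 4.84 and 3.29 FPKM in WT at 44 h, against 4.49 and 4.33 FPKM in KO and 5.35 and 4.19 FPKM in WT at 0 h. Eif2ak3, which encodes PERK of the unfolded protein response, had 7.17 and 8.67 FPKM in KO and 7.15 and 5.51 FPKM in WT at 44 h, against 7.23 and 7.53 FPKM in KO and 7.13 and 7.60 FPKM in WT at 0 h. KO and WT and the 2 times overlapped for Eif2ak2, and for Eif2ak3 both KO libraries were above both WT libraries at 44 h, the nearest ones by less than the gap between replicates.

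No gene of eIF2, the substrate of these kinases, or of its exchange factor eIF2B passed the test. The alpha and beta subunit genes Eif2s1 and Eif2s2 had 116 to 157 and 110.5 to 158 FPKM over the 8 libraries. Eif2s3x, the X-linked gamma subunit gene, had 31.3 and 35.1 FPKM in KO and 44.1 and 38.6 FPKM in WT at 44 h, against 33.0 and 32.0 FPKM in KO and 41.8 and 38.6 FPKM in WT at 0 h. All 4 KO libraries were below all 4 WT libraries, by -0.31 at 44 h (SE 0.149, limma adjusted p = 0.543; -0.23 without KO replicate 1) and -0.30 at 0 h (SE 0.149, adjusted p = 0.592). Eif2b1, the regulatory alpha subunit of eIF2B, had 95.3 and 81.7 FPKM in KO and 75.0 and 73.6 FPKM in WT at 44 h, against 118 and 111 FPKM in KO and 88.7 and 92.6 FPKM in WT at 0 h. KO was above WT at both times, by 0.24 at 44 h (SE 0.140, adjusted p = 0.581) and by 0.33 at 0 h (SE 0.140, adjusted p = 0.513). The difference at 0 h had the smallest p of the 55 genes in that comparison (unadjusted p = 0.0487). The difference at 44 h was 0.13 without KO replicate 1 and 0.35 without KO replicate 2. Over time Eif2b1 had a fitted change in KO of -0.37 (SE 0.140, unadjusted p = 0.0325, limma adjusted p = 0.194), which did not pass. Eif2b5, the catalytic epsilon subunit, ran the other way, with 58.6 and 59.4 FPKM in KO and 60.3 and 70.5 FPKM in WT at 44 h, against 51.4 and 53.2 FPKM in KO and 66.5 and 58.6 FPKM in WT at 0 h. The remaining eIF2B genes and the alternative tRNA-delivery factors Eif2a and Eif2d had 26.4 to 83.2 FPKM over all libraries, and none had an unadjusted p under 0.05.

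Among the factors that govern scanning, start codon choice and subunit joining, Eif5b had the smallest p of the 55 genes in KO against WT at 44 h. Its product is the GTPase that joins the large subunit, and it had 21.4 and 19.0 FPKM in KO and 15.4 and 13.2 FPKM in WT at 44 h, against 22.7 and 25.6 FPKM in KO and 22.3 and 20.9 FPKM in WT at 0 h. The 2 WT libraries at 44 h were the lowest of the 8, and both KO libraries at 44 h lay below both at 0 h. The change was -0.25 in KO (SE 0.164, limma adjusted p = 0.423) and -0.57 in WT (SE 0.164, adjusted p = 0.120), KO against WT at 44 h was 0.47 (SE 0.164, adjusted p = 0.497) and the interaction was 0.32 (SE 0.232, adjusted p = 1.00). Without KO replicate 1 at 44 h the genotype difference was 0.39 (adjusted p = 0.733), within a range of 0.129 to 0.937 over the leave-one-out fits and of 0.467 to 0.757 over the other alternatives. Eif1, which keeps the scanning ribosome open, was 287 to 313 FPKM in KO and 327 to 341 FPKM in WT at 44 h, against 356 to 401 FPKM in KO and 383 to 402 FPKM in WT at 0 h. Its paralog Eif1b was 66.6 to 104 FPKM in KO and 69.5 to 84.8 FPKM in WT at 44 h, against 111 to 134 FPKM in KO and 91.2 to 100.2 FPKM in WT at 0 h. Its change in KO was -0.55 over all libraries (SE 0.236, adjusted p = 0.239). When KO replicate 1 at 44 h was left out, which leaves 1 library in that group, it was -0.87. Without KO replicate 2 it was -0.24. Eif5, the GTPase activator of eIF2, had 109.9 and 195 FPKM in KO and 212 and 188 FPKM in WT at 44 h, against 148 and 211 FPKM in KO and 245 and 207 FPKM in WT at 0 h. These values of Eif1, Eif1b, Eif5 and Eif6 were picked out after they had been seen. Eif6, which holds the large subunit free, had 211 and 143 FPKM in KO and 150.0 and 192 FPKM in WT at 44 h and 163 to 191 FPKM in the libraries at 0 h.

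The eIF3 complex, the scaffold of the initiation assembly, was read through 12 tested subunit genes. The summed level of its 13 listed genes was 2388 and 1746 FPKM in KO and 1883 and 2164 FPKM in WT at 44 h, against 2025 and 2127 FPKM in KO and 2264 and 2211 FPKM in WT at 0 h. The 2 KO libraries at 44 h held the highest and the lowest sum, with all other libraries between them. Relative to the WT mean at 0 h, the median subunit stood at 0.07 (log2) and -0.34 in KO replicates 1 and 2 at 44 h, against -0.21 and -0.13 for WT replicates 1 and 2 at that time. At 0 h it stood at -0.17 and -0.07 for the KO libraries and at 0.01 and -0.01 for the WT libraries. KO replicate 1 at 44 h had the highest value of Eif3d, Eif3e, Eif3f, Eif3i and Eif3m, and KO replicate 2 at 44 h had the lowest value of 8 subunit genes, those 5 together with Eif3g, Eif3h and Eif3k. For KO against WT at 44 h the median over the 12 genes was 0.05 with both KO libraries, -0.19 without KO replicate 1 and 0.30 without KO replicate 2, so its direction depended on which KO library was used. At 0 h 11 of the 12 were lower in KO, with a median of -0.13 and a range of -0.19 to 0.01, and none had an unadjusted p under 0.05; under median-of-ratios scaling all 12 were lower (median -0.18). Over time in WT 10 of 12 were lower (median -0.15), which became 7 of 12 under median-of-ratios scaling (median -0.01) and 11 of 12 under quantile normalization (median -0.22). Eif3a, the largest subunit, had 50.3 and 37.4 FPKM in KO and 44.4 and 31.0 FPKM in WT at 44 h, against 45.9 and 52.8 FPKM in KO and 54.8 and 51.4 FPKM in WT at 0 h. Eif3c was the steadiest, with 87.4 to 89.2 FPKM in the 4 libraries at 44 h and 97.5 to 99.3 FPKM in the 4 at 0 h, which did not overlap.

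**Figure D5:**
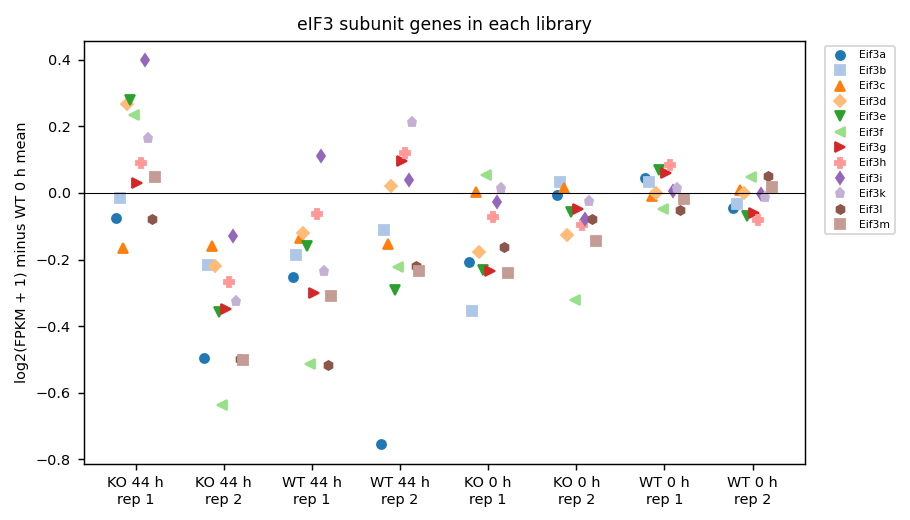
Level of each of the 12 eIF3 subunit genes tested in each of the 8 libraries, as log2(FPKM + 1) minus the WT mean at 0 h, with a symbol per gene. The subunits of KO replicate 1 at 44 h lie mostly above 0 (median 0.07) and those of KO replicate 2 at 44 h lie below 0 (median -0.34).

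The same 2 KO libraries differed across the initiation factors as a whole. At 44 h, 44 of the 55 genes were higher in KO replicate 1 than in KO replicate 2, with a median difference of 0.22 (log2), while over all genes the median difference was -0.01. Replicate 1 was the higher for 32 of 55 genes among WT libraries at 44 h (median 0.03), for 28 among KO libraries at 0 h (median 0.02) and for 31 among WT libraries at 0 h (median 0.02). A gap of at least 0.5 between the libraries was found for 16 of the 55 genes in KO at 44 h, against 35.0% of all genes, for 5 among WT libraries at 44 h (13.9% of all genes), for 4 among KO libraries at 0 h (16.5%) and for 3 among WT libraries at 0 h (14.2%). The second KO library at 44 h held the lowest value for 18 of the 55 genes (32.7%, against 10.1% of all genes), and KO replicate 1 at 44 h the highest value for 12 (21.8%, against 12.1%). WT replicate 2 at 44 h held the lowest value for 19 of the 55 (34.5%, against 25.9% of all genes). Sequencing depth relative to the median library was 1.01 and 1.26 in KO replicates 1 and 2 at 44 h, against 0.904 to 1.03 in the other 6 libraries. Summed marker levels in KO replicate 1 and KO replicate 2 at 44 h were 136 and 443 FPKM for surface epithelium, 18.0 and 369.7 FPKM for oviduct and ciliated cells, 40.2 and 189 FPKM for erythroid cells, 12.7 and 43.4 FPKM for endothelium, 215 and 318 FPKM for theca and stroma and 476 and 520 FPKM for leukocytes. For erythroid cells, replicates 1 and 2 had 361 and 339 FPKM in WT at 44 h. At 0 h they had 952 and 108 FPKM in KO and 686 and 98.9 FPKM in WT. For leukocytes they had 367 and 274 FPKM in WT at 44 h. The leukocyte sums at 0 h were 975 and 181 FPKM in KO and 264 and 235 FPKM in WT. In both lists the KO pair lay further apart at 0 h than at 44 h. For the oviduct and ciliated cell markers, WT replicates 1 and 2 at 44 h had 391 and 22.6 FPKM. Of this, Ovgp1 had 366 and 6.05 FPKM, against 3.04 and 279 FPKM in KO replicates 1 and 2 at 44 h. Tppp3, another of these markers, had 12.1 and 9.61 FPKM in WT and 8.32 and 53.5 FPKM in KO. Both pairs thus lay far apart in Ovgp1, whereas Tppp3 lay far apart only in KO. The part of depth and of these cells in the difference between the KO libraries was not tested.

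Eif5a2 and the Argonaute genes were at the lower end of the levels. Eif5a2, the paralog of Eif5a, had 1.92 and 1.26 FPKM in KO and 1.74 and 0.908 FPKM in WT at 44 h, against 1.71 and 2.01 FPKM in KO and 2.32 and 2.37 FPKM in WT at 0 h. Eif2c3 (Ago3) had 2.69 and 1.84 FPKM in KO and 1.63 and 1.42 FPKM in WT at 44 h, against 3.76 and 3.53 FPKM in KO and 2.099 and 2.93 FPKM in WT at 0 h. Eif2c1 (Ago1) had 1.14 to 1.35 FPKM in the 4 libraries at 44 h and 2.07 to 2.54 FPKM in the 4 at 0 h, and Eif2c2 (Ago2), the slicing Argonaute, had 1.49 to 2.02 FPKM at 44 h and 2.60 to 3.09 FPKM at 0 h. All 3 tested Argonaute genes were lower at 44 h in both genotypes with no overlap between times, as were 25.4% of all genes. The changes in WT were -0.57 for Eif2c1 (SE 0.194, limma adjusted p = 0.148), -0.49 for Eif2c2 (SE 0.203, adjusted p = 0.197) and -0.47 for Eif2c3 (SE 0.227, adjusted p = 0.257). Both scalings kept these signs.

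The genes around initiation showed the same scarcity of calls. Of 9 elongation genes, 9 termination and recycling genes, 10 genes of poly(A)-binding proteins and their partners, 14 other regulators of initiation and 19 mTORC1 pathway genes, limma called 0 in each of the 5 comparisons; at an unadjusted p under 0.05 the counts in KO over time were 1 of 9, 2 of 9, 3 of 10, 3 of 14 and 3 of 19, against 21.1% of all genes. The mTORC1 list had 4 of 19 in KO against WT at 44 h, all 4 lower in KO, against 9.79% of all genes in either direction. The poly(A)-binding group had a median change of -0.36 in KO, with 0 of 10 genes higher at 44 h, and of -0.30 in WT, with 1 of 10 higher. Over all genes the median was -0.11 in KO, with 39.3% higher, and -0.13 in WT, with 38.0% higher. The oocyte marker sum was also lower at 44 h than at 0 h in each genotype (1530 to 2519 against 4616 to 5248 FPKM in KO, and 1052 to 1064 against 1944 to 3247 FPKM in WT), and its part in these values was not tested. Within the poly(A)-binding group, Pabpc1l, known from oocytes, had 11.4 and 6.82 FPKM in KO and 6.11 and 6.91 FPKM in WT at 44 h, against 29.9 and 18.9 FPKM in KO and 8.65 and 18.1 FPKM in WT at 0 h (KO change -1.33, SE 0.392, adjusted p = 0.139). Paip2b, an inhibitor of poly(A)-binding protein, had a fitted change of -0.74 in KO (SE 0.193, adjusted p = 0.118) and Pabpc4 one of -0.97 (SE 0.257, adjusted p = 0.123). Mcts2, a close copy of the recycling factor gene Mcts1 with which it may share reads, was higher at 44 h with 33.7 and 29.3 FPKM in KO and 30.6 and 36.0 FPKM in WT, against 12.5 and 12.5 FPKM in KO and 22.8 and 16.2 FPKM in WT at 0 h (KO change 1.26, SE 0.201, adjusted p = 0.0813). Bzw1, which competes with eIF5 for eIF2, had 292 and 296 FPKM in KO and 385 and 359 FPKM in WT at 44 h, against 144 and 174 FPKM in KO and 286 and 204 FPKM in WT at 0 h (KO change 0.89, SE 0.197, adjusted p = 0.109). The fitted change of Deptor, an mTOR inhibitor, was -0.72 in KO (SE 0.148, adjusted p = 0.0971). That of Sesn1, an upstream inhibitor of mTORC1, was -0.92 in WT (SE 0.265, adjusted p = 0.119). Pdpk1, also of the mTORC1 list, had a fitted change of -0.65 in KO (SE 0.192, adjusted p = 0.139). That of Eef2k, the kinase that blocks elongation, was -1.05 in KO (SE 0.282, adjusted p = 0.124).

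Targets of the integrated stress response, which the eIF2 alpha kinases set off, gave 1 call among 12 genes, in KO over time, where 0.139% of all genes were called. Nupr1, a stress-induced chromatin factor gene, fell to 74.6 and 116 FPKM in KO at 44 h, against 434 and 525 FPKM in KO at 0 h (change -2.35, SE 0.243, limma adjusted p = 0.0473). In WT it had 160.0 and 125 FPKM at 44 h, against 640.4 and 588 FPKM at 0 h. The call held without KO replicate 1 at 44 h (-2.03, adjusted p = 0.00612), and over 18 alternatives the adjusted p ran between 0.00612 and 0.286, past the threshold in 9. Cebpb had 76.3 and 93.5 FPKM in KO and 98.0 and 69.1 FPKM in WT at 44 h, against 22.0 and 55.2 FPKM in KO and 46.7 and 28.2 FPKM in WT at 0 h, and its KO change of 1.25 (SE 0.438, adjusted p = 0.174) did not pass. Over the list the median change was -0.11 in KO and -0.13 in WT, and that over all genes was also -0.11 in KO and -0.13 in WT.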

How the data were processed

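The authors deposited one table of FPKM per gene symbol for the 8 libraries, used here as given. TopHat2 2.1.1, Cufflinks 2.2.1 and build mm9 are named in the submitters' processing notes, with neither role nor order. Which annotation was counted, and with what filters, is not given in the sources used here. FPKM are not counts, so no count model was fitted, and a value of 0 can stem from a failed estimate. Relative depth was read from the steps between low values.

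Values were tested as log2(FPKM + 1), a scale that understates the change of low genes, for the 13688 of 23235 symbols that reached 1 FPKM in 2 or more libraries. limma 3.58.1 in R 4.3.3 was fitted with 4 group means over all 8 libraries (4 residual degrees of freedom, empirical Bayes with a mean trend, two-sided). Benjamini-Hochberg adjustment ran over all genes in each of 5 comparisons, and genes under 0.05 were called. The pipeline was tested on simulated data. Alternatives were other pseudocounts (0.1 and 5), filters, scalings, fits of the compared groups alone, a replicate block and leaving out each library.

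Per-library values are given for the 3 genes with the highest mean, any called gene, up to 4 genes with the smallest p per comparison, and the Eif4ebp, Eif4e and Eif2ak families; of other lists, up to 3 genes with the smallest p are named. Further genes were picked after their values were seen. The members and lists were chosen with earlier results of these data known.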

Additional observations from a re-analysis of the deposited data

How the results depend on the processing

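With 2 libraries a group, 1 library can decide a value. The median over the 55 genes ran between -0.080 and 0.20 in KO against WT at 44 h, between -0.24 and 0.030 in KO over time and between -0.050 and 0.16 in the interaction when single libraries were left out, in each case with the extremes set by KO replicates 1 and 2 at 44 h. Under median-of-ratios scaling the median over time was 0.060 in KO and -0.038 in WT, and under quantile normalization it was -0.091 in KO and -0.19 in WT. The number of the 55 genes called over time in WT was 1, Eif4e3, when the WT libraries were fitted alone, where 6.9% of all genes were called. In KO over time 0 of the 55 were called under the alternatives that kept 2 libraries in each group. Leaving out KO replicate 1 at 44 h leaves 1 library in that group, and the KO change was then -0.90 for Eif4e3 and -0.87 for Eif1b. In the other comparisons 0 genes were called under every alternative run. For the 4 genes with the smallest p in each comparison, 340 values under an alternative stayed on their side of the threshold with the same sign and 4, all of Eif4e3, passed it; Eif1b was not among these genes. With the replicate number as a block, 0 of the 55 genes were called, and the calls among all genes were 6 in KO over time (19 without the block) and 7 in WT over time (11 without). Deviations of same-numbered libraries correlated between -0.113 and -0.00684 across genes, so same-numbered libraries shared no clear deviation. With 2 libraries a group this cannot show whether the numbers pair the libraries. With the numbers crossed only in the KO group at 44 h, an alternative chosen after seeing the data, 3 genes were called in KO against WT at 44 h and 27 in KO over time, and 0 of them were initiation factor genes. Depth limits the genes near 1 FPKM most.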
